A study of Mus musculus with 4 samples.

Results

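RNA of whole wild-type (WT) mouse embryos at stage E10.5 was set against RNA of whole WT embryos at E8.5, where E stands for the embryonic day. The 2 arrays were chosen by their labelled genotype and stage, and they are 2 of the 4 arrays in the series. The labels give the strain of both as C57BL/6, the genotype as wild type and the tissue as whole embryo. The other 2 arrays carry RNA of whole C57BL/6 embryos with a *Dyrk2* knockout (KO), labelled E8.5 and E10.5, and they served here as a second pair of the same stages. *Dyrk2* encodes a protein kinase, and the study asked what its loss does to the embryo. The number of embryos behind each RNA, their somite counts and whether extraembryonic membranes were removed are not given in the sources used here.

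As background, the embryo at E8.5 has its first somites, a looping heart tube and an open neural tube, and its body axis is still being extended from the tail end. The yolk sac around it absorbs nutrients and makes the first red blood cells. By E10.5 the neural tube has closed and formed its first neurons, primitive red cells circulate, limb buds have grown out, and liver, gut and muscle have started to form.

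Each array carried short DNA probes for mouse transcripts, and the brightness of a spot after Cy3 labelling of the amplified RNA was the measurement. Values below are log2 intensities on a scale where 0 is the 75th percentile of the array, and a gene is represented by its brightest probe. A gene was compared where this probe was well above background, as marked by the scanner software, on at least 1 of the 2 arrays. It was counted as higher or lower at a difference of 1.5-fold or more. Where the probe was well above background on 1 array only, the fold is given as "at least", computed against the dimmer value itself or the lowest signal that passed as well above background on that array, whichever is higher. With 1 array per group there was no replicate check and no p-value for the WT pair. A supporting fit with limma tested the stage over all 4 arrays with genotype as a block, and only p-values named as limma's come from it.

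The embryo at E10.5 had more RNA of blood, neurons and the posterior *Hox* genes, and less RNA of the tail bud and yolk sac endoderm. Of 17572 genes compared, 3440 were higher at E10.5 (19.6%) and 3174 were lower (18.1%), with a median log2 difference of −0.08. All 10 globin genes and all 20 proneural and neuronal differentiation factors were higher, 5 and 8 of them measured through E10.5 only, where a gene could hardly count as lower. In the other direction, 17 of 18 genes of the tail bud and presomitic mesoderm and all 14 genes of yolk sac endoderm were lower. Of these lists, 4 and 3 genes were well above background at E8.5 only. All lists were chosen with earlier results of these data known, so their counts describe the arrays and test nothing. In whole embryos, fewer cells of a type and less RNA per cell cannot be told apart.

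Among probes, 6141 of 33491 were higher (18.3%) and 5831 were lower (17.4%), which together make 35.7%. Which direction led depended on the processing. Quantile normalization gave 5666 higher and 5985 lower, spike-in scaling 5559 and 6925, no scaling 8016 and 3907, and the filter on both arrays 4244 and 4462. Both arrays gave a signal well above background for 29697 probes, and their values had a Pearson correlation of 0.965. A further 2121 probes were well above background at E10.5 only and 1673 at E8.5 only. Among the 29697 probes with a signal at both stages, the rise was 8-fold or more for 208 and the fall was 8-fold or more for 74.

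The other arrays give a scale for these differences. Over 28622 probes well above background on all 4 arrays, the median absolute log2 difference between the stages was 0.363 in WT embryos and 0.317 in KO embryos. Between genotypes of the same stage it came to 0.177 for the E8.5 arrays and 0.121 for the E10.5 arrays. Both E10.5 arrays were at least 1.5-fold above both E8.5 arrays for 2148 genes (12.2%), and at least 1.5-fold below them for 1696 genes (9.65%). In limma the stage effect passed an adjusted p of 0.05 for 11381 of 32289 probes (35.2%), of which 5060 (15.7%) were higher at E10.5 and 6321 (19.6%) were lower. By gene, limma had 3186 of 17031 higher (18.7%) and 3730 lower (21.9%). The KO pair had 3037 of 17276 genes higher (17.6%) and 2447 lower (14.2%). The balance of direction in limma turned with the processing, to 8758 higher and 3010 lower with no scaling, 2095 and 538 with spike-in scaling, and 3561 and 2878 without the intensity trend.

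The medians of lists with many dim genes depended on how background was treated. Values are given below for genes well above background at both stages, and with normexp, a background correction with an offset that compresses dim signals, for lists where these moved a median by or across 1.5-fold. Over all probes normexp left 2921 of 33491 higher and 3488 lower, in place of 6141 and 5831. List counts with normexp are to be read beside these.

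**Figure D1:**
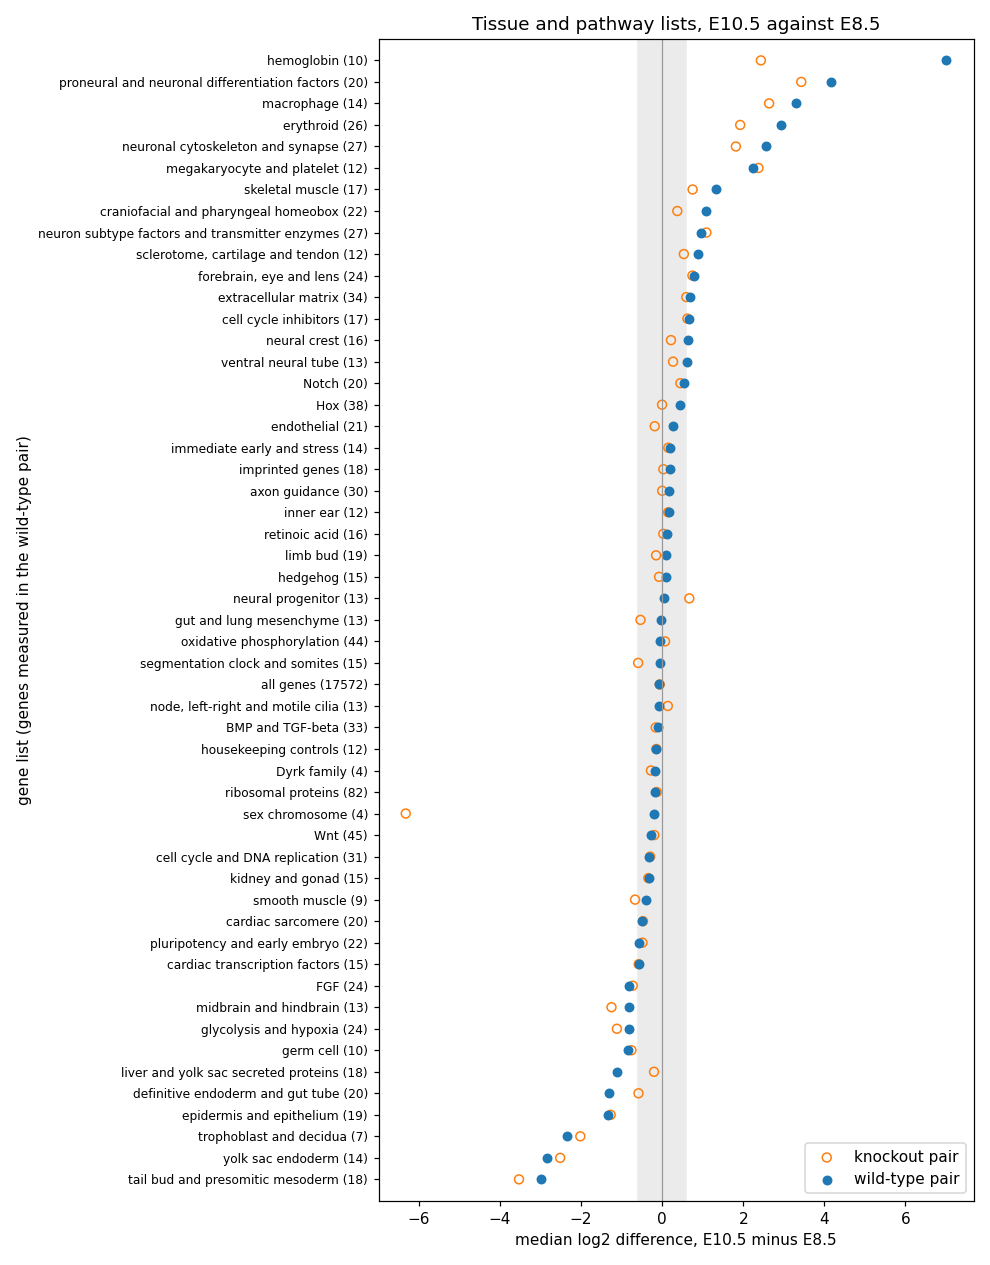
Median log2 difference (E10.5 minus E8.5, horizontal axis) of each gene list in the WT pair (filled points) and the KO pair (open points), with the number of genes measured in brackets and the range within 1.5-fold shaded. Globins lie at 7.01 in the WT pair and tail bud genes at −2.999, beside −0.08 for all genes.

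The globins, which carry oxygen in red cells, all rose, or 9 of 10 with normexp. Their median log2 difference was 7.01, or 6.21 when probes dim at E8.5 were set to the bound and 5.77 with normexp. For 5 of the 10 the E8.5 signal was not well above background. Embryonic beta-like globin *Hbb-y* had a log2 intensity of 0.15 at E8.5 and 8.44 at E10.5, a 313-fold rise. The embryonic alpha-like globin *Hba-x* went from 0.43 to 7.33, which is 120-fold. Both embryonic genes were thus near the 75th percentile of the array at E8.5 and far above it at E10.5. The alpha globin *Hba-a1* rose 139-fold, from 1.02 to 8.14. *Hbb-bh1*, another embryonic beta-like globin, was already at 3.37 at E8.5 and reached 8.19, a 28.3-fold rise. For *Hbb-bt*, an adult beta globin, the E8.5 probe was not well above background, and the rise to 5.10 was at least 971-fold. Probes of related globins may bind each other's transcripts.

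The size of the globin rise differed between the pairs, and the difference lay in the E8.5 arrays. *Hbb-y* was at 6.15 on the KO array at E8.5 and at 8.47 on the KO array at E10.5, so that the 2 arrays at E10.5 were alike and the 2 at E8.5 were not. Summed over the 10 globin genes, the E8.5 intensity was 16.7 in WT and 379 in KO embryos, in units of each array's 75th percentile, and the E10.5 intensity was 1396 and 1624. All 10 were also higher at E10.5 in the KO pair, with a median of 2.44, and on both E10.5 arrays all 10 were at least 1.5-fold above both E8.5 arrays. The limma adjusted p of *Hbb-y* was 0.00343.

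Of 26 measured red cell genes outside the globins, 6 of them not well above background at E8.5, 17 were higher and 0 lower, with a median of 2.94. With spike-in scaling, with all probes of a gene averaged and in the KO pair 1 was lower, and in limma 2 were. The median was 2.29 with bounds, 1.71 for genes above background at both stages and 1.34 with normexp, but 3.59 with all probes averaged. *Slc4a1*, the anion exchanger of the red cell membrane, had −4.56 at E8.5 and 2.67 at E10.5, a 150-fold rise. *Alas2*, the first enzyme of heme synthesis in red cells, went from −3.83 to 2.45, a 77.9-fold rise. *Gata1*, the transcription factor of the red cell and platelet lineages, rose 31.8-fold, from −4.01 to 0.98. All 3 were low at E8.5 in WT embryos, while the KO array at E8.5 had 0.53 for *Slc4a1*, 0.24 for *Alas2* and 0.26 for *Gata1*. *Klf1*, a factor that switches on red cell genes, was not well above background at E8.5 and rose at least 11.3-fold. *Tal1* and *Lmo2*, which act early in the blood lineage, stayed within 1.5-fold, with differences of 0.20 and −0.44. The heme enzyme *Urod*, which is made in many tissues, also stayed within 1.5-fold.

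Most platelet and macrophage genes were not well above background at E8.5. In the megakaryocyte and platelet list 11 of 12 genes were higher and 0 lower, with a median of 2.23. For 8 of the 12 the E8.5 signal was not well above background, and the median was 1.52 with bounds, 0.95 for the other genes and 0.64 with normexp, which left 6 higher. *Pf4*, a chemokine stored in platelets, had −6.45 at E8.5, below the background criterion, and 2.67 at E10.5, a rise of at least 179-fold. The platelet receptors *Treml1* and *Gp9* rose at least 41.3-fold and at least 11.2-fold. Here the KO array at E8.5 was also low, with −5.18 for *Pf4*, again not well above background. Of 14 measured macrophage genes, 8 of them not well above background at E8.5, 13 were higher. The macrophage median was 3.30, or 2.39 with bounds, 1.35 for genes above background at both stages and 1.13 with normexp. The chemokine receptor *Cx3cr1* rose at least 27.6-fold, from −6.91 to −0.04, and the lysozyme gene *Lyz2* at least 23.2-fold. *Csf1r*, the receptor for the growth factor of macrophages, was above background at both stages and rose 3.27-fold, from −1.05 to 0.66. The remaining member, the pan-leukocyte gene *Ptprc*, had a difference of −0.15 with its brightest probe, and its other 3 probes ranged from −1.27 to 4.14. *Spi1*, *Timd4* and *Cd163* were not well above background on either array.

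Endothelial genes moved in both directions, 9 of 21 higher and 6 lower, with a median of 0.27. This balance did not hold in every setting. There were 7 higher and 7 lower under spike-in scaling, and 6 higher and 8 lower in limma. The KO pair had 3 higher and 7 lower, with a median of −0.18, where 17.6% of all genes were higher and 14.2% lower. Higher genes led with quantile normalization (8 and 5), no scaling (10 and 4) and normexp (7 and 3). *Etv2*, a factor that starts the endothelial and blood lineages, fell 23.7-fold, from 1.59 at E8.5 to −2.97 at E10.5. On the KO arrays it went from 1.81 to −2.23, so that both E8.5 arrays were high and both E10.5 arrays low. *Robo4*, a receptor of established endothelium, rose 8.36-fold, from −0.92 to 2.15, and the endothelial sialomucin *Emcn* rose 3.93-fold. The junction gene *Cdh5* rose 1.78-fold, while *Kdr*, the receptor for VEGF, had 2.94 and 2.70. *Sox17*, a factor of arterial endothelium and endoderm, fell 2.11-fold.

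In the heart, contractile genes were lower at E10.5 more often than higher. Of 20 sarcomere and related genes, 4 were higher (20%) and 9 lower (45%), beside 19.6% and 18.1% of all genes. Their median was −0.51, or −0.61 with all probes of a gene averaged. *Myl7*, the atrial light chain, had 5.97 at E8.5 and 4.57 at E10.5, a 2.64-fold fall. The alpha myosin heavy chain *Myh6* fell 2.16-fold and cardiac troponin T (*Tnnt2*) fell 2.17-fold. The 4 higher, near the share of all genes, included genes of chamber muscle. *Nppa*, the hormone of working chamber muscle, went from −0.54 to 3.28, a 14.1-fold rise. The ventricular light chain *Myl2* rose 3.39-fold, and *Pln*, which regulates the calcium pump, rose at least 5.12-fold. Cardiac transcription factors had 3 of 15 higher (20%) and 6 lower (40%), with a median of −0.58, or −0.65 with spike-in scaling. *Nkx2-5*, an early heart factor, fell 4.83-fold, from 1.73 to −0.55, and *Hand1* fell 3.44-fold. *Gata4* and *Tbx20* each fell 2.76-fold. *Gata4* is also a member of the endoderm list below and *Hand1* of the trophoblast list. In whole embryos their falls cannot be assigned to the heart. *Tbx2*, which marks the atrioventricular canal and other tissues, rose 5.58-fold, and *Tbx5* had a difference of 0.34.

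Skeletal muscle genes were higher at E10.5 more often than lower. Of 17 measured, 10 were higher and 1 lower, with a median of 1.33. For 6 of the 17 the E8.5 signal was not well above background, and the median was 0.25 for the other genes and 0.57 with normexp. In the KO pair 9 were higher and 2 lower, with a median of 0.75, and the summed intensity of the list went from 24.7 to 25.9, beside 22.3 to 35.8 in the WT pair. *Myog*, the factor that commits muscle cells to differentiate, went from −6.75 to 1.06, a rise of at least 58.7-fold. Embryonic myosin heavy chain *Myh3* went from −4.61, under the background criterion, to 2.66, a rise of at least 155-fold. *Tnnc2*, a troponin of fast muscle, rose 24.8-fold. *Myf5* was not well above background at either stage. Skeletal actin *Acta1*, which the early heart also makes, was the 1 member lower, by 1.67-fold. Among smooth muscle genes 0 of 9 were higher and 3 lower. *Myocd*, a coactivator of heart and smooth muscle genes, fell 5.93-fold and *Acta2*, smooth muscle actin, fell 2.26-fold.

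**Figure D2:**
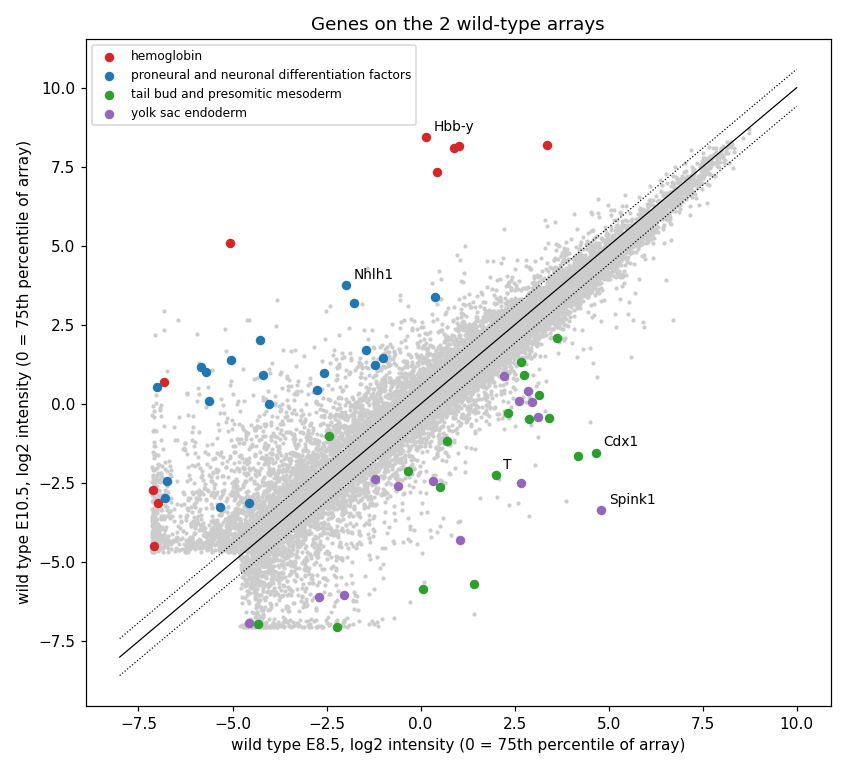
Each gene compared, with its log2 intensity on the WT E8.5 array (horizontal axis) and the WT E10.5 array (vertical axis), where 0 is the 75th percentile of each array, the solid line marks equal values and the dotted lines mark 1.5-fold. Globin and neuronal factor genes lie above the lines and yolk sac endoderm genes below them, with *Hbb-y* at 0.15 and 8.44 and *Spink1* at 4.81 and −3.34.

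Genes of the tail bud and presomitic mesoderm, the tissue that extends the body axis, had a median of −2.999, with 17 of 18 lower. *T* (Brachyury), the factor of the primitive streak and notochord, had 1.996 at E8.5 and −2.25 at E10.5, an 18.9-fold fall. The posterior homeobox gene *Cdx1* fell 73.4-fold, from 4.67 to −1.53, and *Cdx2* fell 56.7-fold, from 4.18 to −1.65. *Cdx4* had 1.43 at E8.5, was not well above background at E10.5 and fell at least 70.8-fold. The KO pair had the same direction, from 1.64 to −3.74 for *T* and from 3.54 to −0.96 for *Cdx1*. The limma adjusted p was 1.7e-06 for *T* and 3.98e-06 for *Cdx1*.

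Other genes of the tail end followed. *Tbx6*, which directs cells to paraxial mesoderm, fell 10.3-fold, from 2.89 to −0.48. *Evx1* fell 14.6-fold and *Nkx1-2*, a marker of the progenitors shared by spinal cord and mesoderm, at least 27.4-fold. Of the signals made there, *Fgf8* fell 3.62-fold, *Fgf4* 8.71-fold and *Wnt3a* 3.68-fold. *Cyp26a1*, the enzyme that clears retinoic acid from the tail bud, fell 6.17-fold. *Wnt3* was the 1 member higher, by 2.68-fold. Both E10.5 arrays lay at least 1.5-fold below both E8.5 arrays for 17 of the 18 genes, and its summed intensity fell from 113 to 14.3 between the WT arrays.

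Among 15 genes of the segmentation clock and somites 3 were higher and 6 lower. The clock gene *Hes7* fell 5.46-fold, from 1.83 to −0.62, and *Mesp1*, expressed where the next somite forms and in early cardiac mesoderm, fell at least 7.61-fold. The Notch ligands of the clock stayed within 1.5-fold, with 1.48 and 1.43 for *Dll1* and 2.73 and 3.04 for *Dll3*. The 3 higher genes were *Meox2*, by 5.40-fold, *Uncx*, by 4.02-fold, and *Tbx18*, by 3.13-fold. Of other genes of formed somites, *Meox1* had 2.90 and 2.48, *Tcf15* had 2.04 and 2.03, and *Foxc2* fell 1.88-fold. The list median of −0.05 turned positive with quantile normalization, the deposited table, no scaling or the genes above background at both stages. In the sclerotome, cartilage and tendon list 7 of 12 genes were higher and 2 lower, with a median of 0.89. *Pax1*, a factor of the vertebral precursors, went from −1.65 to 1.33, a 7.84-fold rise, and the tendon factor *Scx* rose 4.31-fold. *Sox9*, the main factor of cartilage, rose 1.93-fold.

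*Hox* genes, which set position along the body axis, differed in direction by their number within the clusters. Low numbers act toward the head and high numbers toward the tail. Of 38 measured, 17 were higher and 5 lower, with a median of 0.44, or 0.62 with no scaling. All 11 genes of paralogue groups 10 to 13 were higher, with a median of 3.84. For 7 of the 11 the E8.5 signal was not well above background. The median was 3.44 with bounds, 3.51 for the other 4 genes and 1.84 with normexp, which left 10 higher. In groups 3 to 9, 6 of 22 were higher and 1 was lower, with a median of 0.23. The other 4 lower genes belong to groups 1 and 2, where 0 were higher. In the KO pair the median was 2.58 for groups 10 to 13 and −0.20 for groups 3 to 9, and 15 of 37 *Hox* genes were higher and 10 lower.

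Among the posterior genes, *Hoxa11* had −2.09 at E8.5 and 1.60 at E10.5, a 12.9-fold rise. *Hoxa10* rose 7.66-fold, from −0.54 to 2.40, and *Hoxc10* rose 14.3-fold. *Hoxd12* and *Hoxd10* were not well above background at E8.5 and rose at least 24.2-fold and at least 18.2-fold. On the KO arrays *Hoxa11* had −1.98 and 1.44, and *Hoxd12* had −6.80 and −1.34. *Hoxb13* reached −1.38 in WT embryos at E10.5 and was not well above background on the other 3 arrays. Among the anterior genes, *Hoxd1* fell 10.1-fold, from 1.17 to −2.16, and *Hoxb1*, which marks a segment of the hindbrain, fell 7.31-fold, from 1.44 to −1.43. In the middle of the clusters, *Hoxa5* rose 2.75-fold, *Hoxc8* fell 2.22-fold, and *Hoxb9* had 3.35 and 2.83.

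**Figure D3:**
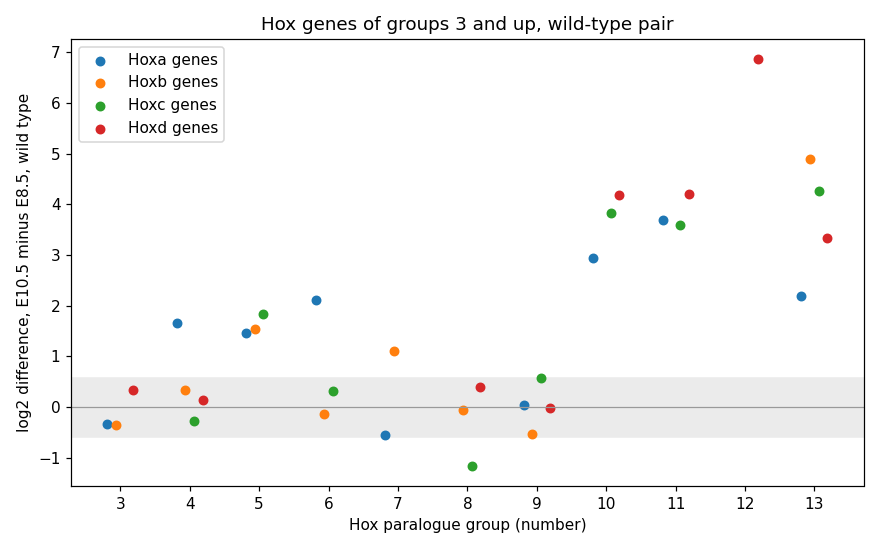
Log2 difference (E10.5 minus E8.5, vertical axis) of the *Hox* genes of groups 3 to 13 measured in the WT pair by its paralogue group number (horizontal axis), coloured by cluster, with the range within 1.5-fold shaded. All 11 genes of groups 10 to 13 lie above the shaded range, and groups 1 and 2, which hold 4 of the 5 lower genes, are not drawn.

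Limb bud genes went both ways, with 5 of 19 higher, 5 lower and a median of 0.10. These are 26.3% each way, beside 19.6% and 18.1% of all genes. *Lhx9*, a factor of limb mesenchyme also made in brain and gonad, went from −6.18 to −0.36, a rise of at least 22.0-fold. *Prrx1*, a factor of limb and facial mesenchyme, rose 4.75-fold. *Tbx5*, the forelimb factor, and *Tbx4*, the hindlimb factor, stayed within 1.5-fold, with *Tbx4* at 0.06 and 0.34. Since members such as *Fgf4*, *Fgf8*, *Shh* and *Msx1* are also made outside the limb, the list is not particular to limb tissue.

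Genes of neurons rose between the stages. All 20 proneural and neuronal differentiation factors were higher, with a median of 4.15, or 3.77 with bounds, 3.38 for the 12 genes above background at both stages and 2.80 with normexp, which left 18 higher. *Nhlh1*, a factor of newly formed neurons, had −1.98 at E8.5 and 3.75 at E10.5, a 53.1-fold rise. *Neurod1* went from −5.83, below the background criterion, to 1.16, a rise of at least 63.1-fold. *Insm1* rose 30.9-fold, from −1.77 to 3.18, and *Myt1* rose 78.0-fold, from −4.27 to 2.01. *Neurog2*, a proneural factor that starts the process, rose 9.30-fold, from −2.76 to 0.46. The smallest rise of the list was 2.66-fold, for *Myt1l*. On both E10.5 arrays all 20 genes lay at least 1.5-fold above both E8.5 arrays, and the KO pair had a median of 3.43. The limma adjusted p of *Nhlh1* was 3.46e-07.

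Structural genes of neurons followed, with 24 of 27 higher, 1 lower and a median of 2.57, or 1.90 with normexp. *Stmn4*, a regulator of microtubules, had −3.82 and 3.28, a 137-fold rise. *Elavl3*, an RNA-binding protein of neurons, rose 43.3-fold, from −2.51 to 2.93, and *Dcx*, which marks migrating neurons, rose at least 69.6-fold. Neuronal tubulin *Tubb3* was already at 1.17 at E8.5 and rose 7.79-fold to 4.13. Medium neurofilament *Nefm* rose 11.3-fold, whereas heavy neurofilament *Nefh* fell 7.21-fold, from −0.50 to −3.34. A second *Nefh* probe had a difference of −2.91, and the KO arrays had −0.55 and −3.69 for *Nefh*. The cell adhesion gene *Cntn2* rose 56.7-fold with its brightest probe and had a log2 difference of 1.35 with its other probe. *Snap25* and *Chga* stayed within 1.5-fold.

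Of 13 progenitor genes of the neural tube 12 were well above background at E8.5. Among the 13, 6 were higher and 0 lower, with a median of 0.05 that turned negative with spike-in scaling. The median was 0.48 with all probes of a gene averaged. In the KO pair 7 were higher and 0 lower, with a median of 0.67. *Sox2*, the factor of neural progenitors, had 3.08 and 3.12, and *Pax6* had 1.33 and 1.04. *Fabp7*, made in radial glia, went from 0.49 to 4.19, a 13.0-fold rise, and the intermediate filament *Nes* from 1.94 to 4.51, a 5.96-fold rise. *Hes5*, the Notch target that holds cells as progenitors, rose 5.69-fold, from 3.31 to 5.82. *Pou3f2*, a factor of later progenitors and neurons, rose 11.0-fold.

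Genes of particular neurons were mostly higher, with 16 of 27 higher, 3 lower and a median of 0.97. The signal was well above background at E10.5 only for 5 of the 27 and at E8.5 only for 1. *Lhx3*, a factor of motor neurons and of the pituitary, rose 22.9-fold, from −3.31 to 1.21, although its second probe had a difference of 0.84. Of the enzymes of noradrenaline synthesis, *Th* rose 8.82-fold and *Dbh* at least 35.4-fold. *Isl1* rose 1.94-fold. *Pou4f1*, a factor of sensory neurons, had 1.19 and 0.32 with its brightest probe, a 1.83-fold fall, and its other 2 probes had differences of 2.39 and 2.70. The direction of *Pou4f1* thus rests on the probe.

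Along the ventral neural tube 7 of 13 genes were higher and 2 lower, with a median of 0.61, or 0.54 with spike-in scaling, 0.51 for genes above background at both stages and 0.56 with normexp. *Dbx1*, which marks progenitors of interneurons, went from −1.55 to 3.15, a 26.0-fold rise, and *Olig2*, the factor of motor neuron progenitors, rose 5.55-fold. The floor plate and endoderm factor *Foxa2* fell 2.51-fold, from 2.41 to 1.09. *Shh*, the signal of notochord and floor plate, had 1.06 and 1.16.

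In the forebrain, eye and lens list 13 of 24 genes were higher and 5 lower, with a median of 0.78, or 0.52 with bounds, 0.35 for genes above background at both stages and 0.30 with normexp. The E8.5 signal was not well above background for 6 of the 24. *Dlx1*, a factor of the ventral forebrain and branchial arches, rose at least 15.4-fold. The 5 lower genes included *Hesx1*, by 12.0-fold, from 0.18 to −3.40, the eye field factor *Rax*, by 2.23-fold, and *Six3*, by 1.79-fold. *Otx2*, made in forebrain and midbrain, had 3.38 and 2.88.

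Midbrain and hindbrain genes had 3 of 13 higher and 7 lower, with a median of −0.82, or −0.55 with all probes of a gene averaged. *Egr2*, which marks segments of the early hindbrain and their neural crest, had 2.35 at E8.5 and −3.20 at E10.5, a 46.9-fold fall. It was high on both E8.5 arrays and low on both E10.5 arrays, with 1.95 and −3.14 in KO embryos. *Gbx2*, at the border of midbrain and hindbrain, fell 3.20-fold and *Pax5* fell 3.53-fold. *En2*, from the same region, had 1.56 and 1.98.

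Neural crest genes had 8 of 16 higher and 2 lower, with a median of 0.65, or 0.35 for genes above background at both stages and 0.32 with normexp. *Ednrb*, a receptor of migrating crest cells, rose 3.47-fold and *Sox8* at least 6.86-fold. The early crest factors *Foxd3* and *Tfap2a* fell, by 2.01-fold and 1.63-fold. *Sox10*, made in migrating crest and glia, had 1.22 and 1.49. Homeobox and related genes of the face and pharyngeal arches had 12 of 22 higher and 0 lower, with a median of 1.08, or 0.42 with normexp. With spike-in scaling 1 was lower, and in limma 2 were. In the KO pair 10 were higher and 1 lower, with a median of 0.37, within 1.5-fold. *Lhx8* rose 16.3-fold with its brightest probe, from −3.45 to 0.58, while its second probe had a difference of −0.04. *Barx1*, made in jaw and stomach mesenchyme, rose 14.1-fold, from −4.67 to −0.86, and *Alx4* rose 5.93-fold. Inner ear genes had 5 of 12 higher and 2 lower, or 2 and 1 with normexp, but 3 higher and 4 lower in limma. For 3 of the 12 the E8.5 signal was not well above background. The median of 0.16 became −0.23 for genes above background at both stages. *Oc90*, an early protein of the otocyst, rose at least 26.1-fold, from −6.93 to −0.11.

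Endoderm and gut tube genes were mostly lower in the WT pair, with 13 of 20 lower, 4 higher and a median of −1.31. In the KO pair 9 of 19 were lower and 4 higher, with a median of −0.58. *Hnf4a*, a factor of gut, liver and yolk sac endoderm, fell 4.67-fold, from 0.67 to −1.56. *Ihh*, a hedgehog ligand of gut and yolk sac endoderm, fell 8.07-fold, and the gut hormone *Pyy* fell 15.3-fold. The 4 higher genes were *Ptf1a*, *Nkx2-1*, *Onecut1* and *Sst*. *Ptf1a*, made in pancreas and neural tube, rose at least 7.27-fold, *Nkx2-1*, made in lung, thyroid and forebrain, at least 9.10-fold, and *Onecut1*, made in liver, pancreas and neurons, 11.6-fold. The hormone *Sst*, which neurons and endocrine cells make, went from −6.83 to 2.96, a rise of at least 219-fold. In the mesenchyme of gut and lung 3 of 13 genes were higher and 6 lower, and the median of −0.02 turned positive with no scaling. *Foxf1* fell 2.73-fold, from 3.61 to 2.16, and *Foxf2* rose 2.19-fold. *Osr1* fell 2.62-fold.

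Proteins secreted by liver and yolk sac moved in opposite directions within their list, with 6 of 18 higher, 10 lower and a median of −1.11, or −0.35 for genes above background at both stages and −0.57 with normexp. The KO pair had 7 of 17 higher and 7 lower, with a median of −0.20. *Alb*, the plasma protein of the liver, went from −7.09 to −0.42, a rise of at least 21.1-fold. *Serpina1a* rose 6.47-fold and *Vtn* 4.76-fold. *Afp*, which yolk sac and liver both make, had 3.46 and 4.03. Against these, the apolipoprotein *Apoa1* fell 22.2-fold, from 0.28 to −4.19, *Apob* fell 20.7-fold, and *Apoc2* fell 122-fold, from 3.85 to −3.07. The carrier proteins *Ttr* and *Rbp4* fell 9.13-fold and 6.58-fold. Summed over the list, the intensity went from 67.1 to 41.7 in WT embryos, against 42.1 and 34.2 on the KO arrays. Its brightest gene was *Rbp4* at E8.5 and *Afp* at E10.5 in WT embryos.

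Markers of yolk sac endoderm were well above background in the RNA labelled whole embryo. All 14 genes of the list were so at E8.5 and all 14 were lower at E10.5, with a median of −2.83, or −2.59 with bounds and −2.23 with normexp. *Spink1* had 4.81 at E8.5 and −3.34 at E10.5, a 284-fold fall. *Amn* and *Cubn*, which form the receptor that takes up proteins at the yolk sac surface, fell 40.8-fold, from 1.05 to −4.30, and 36.1-fold, from 2.67 to −2.51. *Rhox5* fell 11.7-fold and the uptake receptor *Lrp2*, which neural and kidney epithelium make too, fell 5.41-fold. The smallest fall was 2.24-fold, for *Muc13*. Its summed intensity went from 73.7 to 6.97 in WT embryos and from 44.2 to 7.11 in KO embryos. *Spink1* was its brightest gene at E8.5 and *Dab2* at E10.5, and 11 of the 14 remained well above background at E10.5. The yolk sac genes moved together with the endoderm factors, apolipoproteins and epithelial genes described here, and their part in the result was not tested.

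Placental and uterine markers were sparse. Of the 15 genes of trophoblast and decidua, 7 were measured, 1 of them higher and 5 lower, with a median of −2.36, or −0.82 for genes above background at both stages and −0.88 with normexp. *Ascl2* fell 5.13-fold, *Elf5* at least 7.50-fold and the progesterone receptor *Pgr* at least 2.29-fold. *Prl3b1*, a placental lactogen, rose 3.40-fold, from −3.99 to −2.23, and *Gcm1* had 3.83 and 3.97. The defining genes *Prl3d1*, *Prl4a1*, *Prl7d1*, *Tpbpa*, *Ctsq*, *Psg17* and *Psg21* were not well above background on either WT array. The measured genes had a summed intensity of 20.2 at E8.5 and 17.5 at E10.5, with *Gcm1* the brightest on both arrays, and their part in the result was not tested.

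Among the largest falls outside the lists, the carbonic anhydrase *Car4* fell 53.4-fold, from 2.60 to −3.14, and the calcium-binding *S100g* fell at least 70.1-fold. *Trap1a*, known from trophoblast and yolk sac, fell at least 21.7-fold. The noncoding RNA *Hoxaas3* fell 33.8-fold with its brightest probe and had a difference of 2.66 with another. Among the rises outside the lists, the factor *Bcl11a*, made in neurons and blood, rose at least 144-fold. *Dnm3os*, the noncoding host of microRNAs in mesenchyme, rose at least 131-fold, and *Islr2*, a membrane protein of axons, at least 90.7-fold.

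Kidney and gonad genes had 6 of 15 higher and 4 lower, with a median of −0.33. *Wt1*, a factor of nephrogenic mesenchyme, gonad and epicardium, rose 8.02-fold, from −1.24 to 1.76. *Gdnf*, the signal that calls out the ureteric bud, was higher as well, and *Six2* rose 2.55-fold. *Pax8* fell 3.91-fold and *Sall1* fell 3.07-fold.

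In the list of early-embryo regulators 11 of 22 genes were lower and 3 higher, with a median of −0.57, within 1.5-fold, or −0.64 with spike-in scaling and −0.82 with all probes of a gene averaged. *Lin28a*, which blocks maturation of a family of microRNAs, had 5.92 at E8.5 and 2.60 at E10.5, a 9.99-fold fall. The pluripotency factor *Pou5f1* fell 6.20-fold, from 0.37 to −2.26. The DNA methyltransferases moved in opposite directions, *Dnmt3b* falling from 5.54 to 3.22 and *Dnmt3a* rising 4.53-fold from 0.66 to 2.84, though a second *Dnmt3a* probe had a difference of 0.03. *Nanog* rose 2.74-fold, from −3.58 to −2.12. Of 10 germ cell genes, 6 were lower and 1, *Nanos3*, was higher, by 3.31-fold, and the median of −0.85 became −0.57 with normexp. In the list of node and cilia genes 4 of 13 were lower, among them *Gdf1* by 5.96-fold, and *Foxj1*, the factor of motile cilia, was higher by 3.32-fold.

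FGF genes were mostly lower, with 13 of 24 lower, 4 higher and a median of −0.82, or −0.52 with normexp. The ligand *Fgf3* fell 21.5-fold, from 2.07 to −2.36, *Fgf15* fell 3.04-fold and the receptor *Fgfr4* fell 3.53-fold. The FGF targets *Etv4* and *Spry4* fell 2.67-fold and 2.31-fold, while *Dusp6* had 4.11 and 3.92. Wnt genes had 17 of 45 lower, 14 higher and a median of −0.29, and 14 lower and 15 higher with quantile normalization. The ligand *Wnt8a* fell at least 13.2-fold and the secreted antagonist *Sfrp5* fell 12.2-fold. *Wnt7b* rose 6.52-fold and the Wnt enhancer *Rspo2* rose at least 23.1-fold. The target *Lef1* fell 2.11-fold.

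Retinoic acid enzymes moved in opposite directions. In the whole retinoic acid list 3 of 16 genes were higher and 5 lower, with a median of 0.12. Quantile normalization gave 5 higher and 5 lower, and no scaling 6 and 3. *Aldh1a2*, the main synthesizing enzyme of the early trunk, fell 2.07-fold, from 3.59 to 2.54, while *Aldh1a1* rose 12.8-fold, from −3.55 to 0.14, and *Aldh1a3* rose 15.7-fold, from −4.00 to −0.03. Of the enzymes that degrade it, *Cyp26b1* rose 4.89-fold, from 0.73 to 3.02, against the fall of *Cyp26a1* given above. Notch genes had 10 of 20 higher and 2 lower, with a median of 0.55, or 0.72 with quantile normalization. Their largest rise was in the target *Heyl*, 37.0-fold, from −4.43 to 0.78.

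Hedgehog genes had 3 of 15 higher, 4 lower and a median of 0.09, near the shares of all genes. There were 3 higher and 2 lower with quantile normalization, and 4 and 1 with no scaling. The ligand *Dhh* rose at least 9.28-fold. *Ptch1* and *Gli1*, the usual readouts of the pathway, fell 1.61-fold and 1.51-fold, and both were within 1.5-fold with no scaling. BMP and TGF-beta genes had 10 of 33 higher and 6 lower, or 5 and 4 with normexp. There were 9 higher and 9 lower with spike-in scaling, 10 and 12 in limma, and 10 and 9 in the KO pair. Their median of −0.11 turned positive with quantile normalization, the deposited table or no scaling. For genes above background at both stages it was −0.32. *Id4* rose 6.13-fold and *Bmpr1b* rose 4.65-fold. *Fst*, an antagonist of activin, fell 6.65-fold and *Bmp2* fell 5.84-fold. Axon guidance genes had 9 of 30 higher and 3 lower, among them *Robo3*, 9.77-fold higher, and *Sema3e*, 7.78-fold lower.

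Glycolysis and hypoxia genes were mostly lower, with 16 of 24 lower, 1 higher and a median of −0.83. The glucose transporter *Slc2a3* had 6.71 on both E8.5 arrays, 2.66 in WT at E10.5 and 3.02 in KO at E10.5, a 16.6-fold fall in WT embryos. *Slc2a1* fell 2.64-fold, the hexokinase *Hk2* 4.25-fold, from 4.02 to 1.93, and *Aldoc* 5.65-fold. *Ldha* had 7.25 and 7.16, and *Ldhb* was the 1 gene higher, by 3.26-fold. Oxidative phosphorylation was steady by contrast, with 0 of 44 genes higher and 1 lower, or 1 and 0 with quantile normalization, and a median of −0.05 that turned positive with quantile normalization, the deposited table or no scaling.

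Cell cycle and DNA replication genes had 0 of 31 higher and 10 lower, with a median of −0.33. Quantile normalization left 2 higher and 3 lower, with a median of −0.09. In the KO pair 1 was higher and 3 were lower. *Mcm4*, part of the replicative helicase, fell 1.77-fold and *Myc* fell 1.82-fold. *Mki67* had 4.81 and 5.22, and *Ccnd2* had 7.27 and 7.42. Inhibitors of the cycle had 10 of 17 higher and 2 lower, with a median of 0.67, or 0.44 with normexp. *Cdkn2c* rose 4.18-fold, *Btg2* rose 3.32-fold, and *Cdkn1c* rose 1.70-fold, from 6.11 to 6.88. *Cdkn2a* fell at least 3.81-fold.

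Extracellular matrix genes had 21 of 34 higher, 4 lower and a median of 0.70, or 0.47 with normexp. *Col3a1*, a fibrillar collagen of connective tissue, had 0.98 and 4.70, a 13.2-fold rise, and *Fbln5*, which assembles elastic fibers, rose 14.9-fold. *Lox*, the enzyme that crosslinks collagen, rose 7.14-fold. Fibronectin (*Fn1*), abundant in the early embryo, fell 1.84-fold. Epithelial genes went the other way, with 12 of 19 lower, 3 higher and a median of −1.34. Of the keratins of simple epithelium, *Krt8* fell 6.43-fold, from 5.52 to 2.84, and *Krt18* 6.03-fold, from 6.53 to 3.93. E-cadherin (*Cdh1*) fell 3.93-fold. *Krt14*, of stratified epidermis, rose 2.87-fold, from −2.54 to −1.02.

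Imprinted genes had 5 of 18 higher and 2 lower. *Phlda2*, which is made in placenta and yolk sac, went from 2.88 to −3.53, an 85.1-fold fall. *H19* had 7.43 and 7.55, and *Igf2* had 4.24 and 4.62. Among 14 immediate early and stress genes 5 were higher and 1 lower, or 2 and 1 with normexp, with *Jun* 2.95-fold higher and *Atf3* 1.93-fold lower.

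Controls moved little. Of 12 housekeeping genes 11 stayed within 1.5-fold and *B2m* was 1.60-fold higher, with a median of −0.15 that turned positive with quantile normalization, the deposited table or no scaling. Of 82 ribosomal protein genes 2 were higher and 2 lower, and the median of −0.18 turned positive with no scaling. Without scaling between arrays the median difference over all probes compared was 0.18 higher than in the values given here. *Dyrk2* had 0.06 at E8.5 and −0.31 at E10.5. Y-linked genes were well above background on both WT arrays, with 1.45 and 0.66 for *Eif2s3y*, and *Xist* was not well above background on either. On the KO array at E8.5 all 4 measured Y-linked genes were well above background and on the KO array at E10.5 0 of 4 were, where *Xist* was at −0.37. The KO pair, and with it the limma fit, thus holds arrays that differ in these genes.

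Promoters of whole gene lists, with members within 1.5-fold or going the other way included, were searched for short letter patterns. RefSeq promoters of GRCm38.p6 are shown for 4 red cell genes that rose. The table holds 300 bases a promoter, most of them before the transcript start, and it matched 7 of the 10 globin genes and 15 of the 26 other red cell genes. Capitals mark the GATA letters AGATAA, their forms with T as the first base (TGATAA), with G as the last base (AGATAG) or with both (TGATAG), and the letters CCACCC, each on either strand, and the TATA-type letters TATAAA or CATAAA on the given strand. Overlapping matches run together. A GATA match was present in 4 of 7 globin promoters and 11 of 17 other red cell promoters, beside 29.8% of 32851 promoters. CCACCC was present in 5 of 7 and 11 of 17, beside 31.5%, and a TATA-type match in 3 of 7 and 0 of 17, beside 14.0%. A match is a description of the letters in this window and not a site. *Hbb-y* lies at chr7:103853158-103853457 (minus strand), *Hba-x* at chr11:32276350-32276649 (plus strand), *Hba-a1* at chr11:32283422-32283721 (plus strand) and *Alas2* at chrX:150547167-150547466 (plus strand).
Hbb-y: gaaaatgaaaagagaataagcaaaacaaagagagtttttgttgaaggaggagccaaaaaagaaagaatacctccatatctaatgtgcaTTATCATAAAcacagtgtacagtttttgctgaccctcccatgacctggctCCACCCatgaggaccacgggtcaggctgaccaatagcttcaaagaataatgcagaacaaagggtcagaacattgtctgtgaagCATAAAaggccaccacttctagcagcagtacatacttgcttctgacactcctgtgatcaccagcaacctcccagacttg
Hba-x: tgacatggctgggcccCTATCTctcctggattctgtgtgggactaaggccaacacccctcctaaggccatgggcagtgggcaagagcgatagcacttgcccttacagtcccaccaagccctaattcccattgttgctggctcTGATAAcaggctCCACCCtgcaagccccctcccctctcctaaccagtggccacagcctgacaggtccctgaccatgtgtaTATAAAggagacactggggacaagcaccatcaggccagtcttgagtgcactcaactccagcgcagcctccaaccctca
Hba-a1: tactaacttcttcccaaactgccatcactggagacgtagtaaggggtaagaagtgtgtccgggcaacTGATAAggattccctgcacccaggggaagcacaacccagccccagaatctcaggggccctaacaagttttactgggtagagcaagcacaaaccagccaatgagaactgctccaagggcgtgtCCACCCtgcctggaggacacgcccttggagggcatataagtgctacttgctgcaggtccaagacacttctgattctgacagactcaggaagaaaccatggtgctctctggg
Alas2: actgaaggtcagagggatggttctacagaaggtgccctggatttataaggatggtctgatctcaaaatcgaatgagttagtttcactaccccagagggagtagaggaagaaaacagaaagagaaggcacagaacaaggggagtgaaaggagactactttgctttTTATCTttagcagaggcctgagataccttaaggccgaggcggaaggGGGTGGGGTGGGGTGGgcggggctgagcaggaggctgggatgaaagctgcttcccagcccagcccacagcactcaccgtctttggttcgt

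For the tail bud the letters CTTTGAT and CTTTGTT, known as bound by TCF and LEF factors in Wnt signaling, were searched on either strand. They were present in 4 of 15 promoters of the 13 genes matched, beside 9.33% of all promoters, and not in those of *T* or *Cdx4*. *Sp5*, a Wnt target, fell 7.34-fold, from 3.16 to 0.28, and its promoter at chr2:70474673-70474972 (plus strand) is shown because it held 2 matches, in capitals.
Sp5: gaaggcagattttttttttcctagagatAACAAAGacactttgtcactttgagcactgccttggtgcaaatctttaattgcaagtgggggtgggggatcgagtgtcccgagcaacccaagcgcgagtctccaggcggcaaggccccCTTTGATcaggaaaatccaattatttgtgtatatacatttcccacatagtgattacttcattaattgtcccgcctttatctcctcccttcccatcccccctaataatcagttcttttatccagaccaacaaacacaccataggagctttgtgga

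For neuronal genes the E box letters CAGATG and CAGCTG, known as bound by proneural factors, were searched on either strand. They were present in 8 of 21 promoters of 13 neuronal differentiation factors and in 14 of 31 promoters of 17 neuronal structural genes, beside 30.6% of all promoters, and not in that of *Neurod1*. The E box letters were also present in 0 of 7 globin, 6 of 17 other red cell and 3 of 15 tail bud promoters. In the tail bud, neuronal factor and neuronal structural promoters, CCACCC was present in 5 of 15, 4 of 21 and 15 of 31. GATA letters were present there in 2 of 15, 5 of 21 and 9 of 31. Whether any letters are particular to a list was not tested. The promoters of *Nhlh1* at chr1:172057547-172057846 (minus strand) and *Elavl3* at chr9:22051974-22052273 (minus strand) are shown as members of each neuronal group, with the match in capitals.
Nhlh1: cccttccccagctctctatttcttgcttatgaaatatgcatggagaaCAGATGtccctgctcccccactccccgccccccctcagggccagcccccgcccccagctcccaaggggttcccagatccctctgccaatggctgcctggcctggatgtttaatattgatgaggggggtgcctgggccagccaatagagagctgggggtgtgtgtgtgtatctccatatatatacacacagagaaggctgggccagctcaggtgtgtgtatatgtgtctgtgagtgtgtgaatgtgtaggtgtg
Elavl3: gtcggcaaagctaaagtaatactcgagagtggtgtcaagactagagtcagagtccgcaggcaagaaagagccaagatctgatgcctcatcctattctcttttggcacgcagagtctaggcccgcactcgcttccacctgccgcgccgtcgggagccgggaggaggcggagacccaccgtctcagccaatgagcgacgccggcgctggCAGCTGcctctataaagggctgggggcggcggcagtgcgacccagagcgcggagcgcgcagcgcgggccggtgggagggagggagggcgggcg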

How the data were processed

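The authors deposited the scanner output of 4 one-colour arrays, with a linear intensity from which background was already subtracted. It was made, per the file headers, with Feature Extraction 10.7.1.1, while the deposited processing notes name version 9.5.1.1. The authors also deposited a table of intensities in which all arrays share 1 distribution, which differed from quantile-normalized scanner values by a median of 0.01 (log2).

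Log2 intensities of non-control spots were averaged per probe without outlier spots, and each array's 75th percentile was subtracted. Probes named by RefSeq accession where possible were reduced to the brightest probe of a gene, by mean over the 4 arrays. Counts used values without bounds. The numbers of probes well above background were 31370 and 31818 on the WT arrays of E8.5 and E10.5, and the lowest such values, used for bounds, were −4.82 and −4.72. The median spread among repeated spots of a probe was 0.0938 and 0.0732 on these arrays (SD, log2). The number of arrays limits the precision.

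Computations used matplotlib 3.10.9, pandas 2.3.3, numpy 2.4.6, Python 3.11.15, R 4.3.3, data.table version 1.17.8 and limma 3.58.1 (lmFit, eBayes with an intensity trend, Benjamini-Hochberg, a signal above background on 2 or more of 4 arrays, 1 residual degree of freedom). The limma fit treats the difference between genotypes in the stage change as error. The steps were tested on simulated data.

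Genes named are members of the lists, those with the largest differences first and those going against their list, beside the 10 largest rises, falls and bounds in each direction. Members and lists were chosen with earlier results of these data known. The separation of both stages on all 4 arrays, the *Hox* paralogue groups and the promoter letters were chosen after the values had been seen. Alternatives tried were quantile normalization, no scaling, spike-in scaling (7 of 10 spike-in probes), a normexp correction with an offset of 50, the deposited table, outlier spots kept, other filters, a 2-fold threshold, a Z-score over 2 or under −2, 1 probe or all probes per gene, bounds, and limma without the trend or the genotype term.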

Additional observations from a re-analysis of the deposited data

Results flagged for a closer look

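*Hk1*, a hexokinase gene, moved in opposite directions in the 2 genotypes, with a log2 difference between E10.5 and E8.5 of −0.61 in WT and 1.02 in KO embryos. Its values were 5.14 and 4.52 in WT embryos and 3.42 and 4.43 in KO embryos. A second probe had a difference of 0.83 in WT embryos. *Pou4f1*, a factor of sensory neurons, was picked out in the same way, with −0.87 in WT and 0.80 in KO embryos. For both genes the difference was not tested.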

How the results depend on the processing

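Of 981 named genes, 567 passed 1.5-fold. No scaling and spike-in scaling shift all genes alike, by 0.18 and −0.07, and could reverse none of these 567. Quantile normalization, the deposited table and the normexp correction reversed 0 of the 567. Named genes within 1.5-fold were not counted as reversed when their sign changed, as for *Asns*, from −0.21 to 0.02 with quantile normalization. With all probes of a gene averaged 3 reversed, to 0.11 for *Hk1*, 0.0371 for *Matn4* and 1.41 for *Pou4f1*, and the cause was not tested. List medians shifted by less than the spot spread in all 52 lists with outlier spots kept, in 36 with quantile normalization or the deposited table, and in 26 with the normexp correction.

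Probes changed, 11972 in the main analysis, came to 6409 with the normexp correction (2921 higher, 3488 lower), 18397 with no filter (9204 lower), 6169 at 2-fold (3661 higher, 2508 lower), 2085 with the Z-score (1357 higher, 728 lower) and 6614 with 1 probe per gene (3440 higher, 3174 lower). The share lower was 48.7% in the main analysis, 32.8% with no scaling and 55.5% with spike-in scaling. Lists with a median past 1.5-fold numbered 25, or 15 with the normexp correction. Probes past limma's threshold for stage numbered 11381, or 2633 with spike-in scaling (2095 higher, 538 lower) and 6439 without the intensity trend (3561 higher, 2878 lower), and between 9931 and 13675 in the other settings. Fewer probes were tested with 1 probe per gene and more with no filter, and for the others the cause was not tested.

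The limma fit paired the stages within genotype, with 11386 probes past its threshold without that block. Within the WT pair no paired analysis was possible because each group had 1 array. Signals near background limit the folds given as bounds. Somite stage, litter and the number of embryos cannot be told apart from stage.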
